A study of Mus musculus with 2 samples.

Results

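The clustered protocadherins are cell-adhesion proteins encoded in 3 neighbouring gene clusters, Pcdha, Pcdhb and Pcdhg. The members described here are the protein-coding genes of the GENCODE M21 mouse annotation whose symbols place them in one of those clusters. There are 57 of them among 22028 protein-coding genes and 55536 gene IDs in all: 14 in the alpha cluster, 22 in the beta cluster and 21 in the gamma cluster. The gamma members divide into 12 of subfamily A, 6 of subfamily B and 3 of the C type. The alpha cluster has 12 variable members and 2 of the C type, Pcdhac1 and Pcdhac2. All 57 lie on the plus strand of mouse chromosome 18 (mm10), between positions 36930184 and 37841873, a span of 911.7 kb. The gene annotated at Pcdhgb8, a polymorphic pseudogene, is outside the members.

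Each alpha and gamma protocadherin is made by joining 1 large variable exon, which encodes the extracellular cadherin repeats, the membrane span and the start of the cytoplasmic tail, to constant exons shared by the whole cluster. Beta protocadherins are encoded by single large exons and lack a constant part. A neuron uses a small, largely random selection of the alternate promoters, chosen through CTCF and cohesin, while the C-type promoters are used more uniformly, and the set of isoforms on a cell surface lets neurites of 1 neuron recognise each other. In spinal cord and retina the gamma cluster is known for its roles in the survival of interneurons and in dendrite self-avoidance.

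The samples were whole neural tubes of Mus musculus strain B6NCrl embryos at embryonic day 12.5, the stage at which spinal neurons are being produced. There was 1 group of 2 biological replicates. Replicate 1 pooled tissue from 120 embryos and replicate 2 from 88, male and female together. No genotype change or treatment is stated for either, so the data hold no contrast of conditions. Messenger RNA was copied from 10 ng of total RNA by oligo-dT priming with a low-input kit and cut by tagmentation, and no step that keeps the strand is named. Estimated counts came to 33529531 and 35461403 per library, of which 19001 and 21270 fell on the members, 0.0584% and 0.0618% of the counts on genes. With bulk tissue, a low level in every cell and a high level in few cells cannot be told apart.

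Levels are given as TPM, a unit that scales counts for transcript length and library depth, so that members can be compared with each other. Such comparisons depend on how evenly reads cover each transcript model. After oligo-dT priming coverage may be uneven, and it was not examined. The gamma cluster supplied most of the protocadherin RNA. Its members summed to 153 and 169 TPM in replicates 1 and 2 (161.4 ± 11.3, SD, n = 2), the alpha cluster to 27.7 and 29.5 TPM (28.6 ± 1.29) and the beta cluster to 33.6 and 35.5 TPM (34.5 ± 1.30). Those sums made up 71.9%, 12.7% and 15.4% of all member TPM. On the log2 scale the gamma sum exceeded the alpha sum by 2.50 ± 0.04 and the beta sum by 2.22 ± 0.05 (SD, n = 2), many times the spread between the libraries. The beta sum exceeded the alpha sum by 0.27 ± 0.01 over 22 beta and 14 alpha genes. The median member stood at 2.00 TPM in the alpha, 1.40 in the beta and 4.96 in the gamma cluster.

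At a threshold of 1 TPM in both libraries, 46 of the 57 members were expressed, against 60.9% of all protein-coding genes. All 21 gamma members passed, with 11 of 14 alpha and 14 of 22 beta members. The members below 1 TPM in both libraries were Pcdha1, Pcdhb1, Pcdhb12, Pcdhb13, Pcdhb14 and Pcdhb15. Another 5 were on different sides of 1 TPM in the 2 libraries: Pcdha4, Pcdhac1, Pcdhb11 and Pcdhb18 passed in replicate 1 only and Pcdhb10 in replicate 2 only. Most members were low for expressed genes. Only 9 reached 5 TPM in both libraries and 3 reached 10 TPM (Pcdhgc3, Pcdhgc4 and Pcdhgb6), while the median protein-coding gene past 1 TPM stood at 21.7 TPM. The median member lay at the 43.9th percentile of all protein-coding genes.

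**Figure D1:**
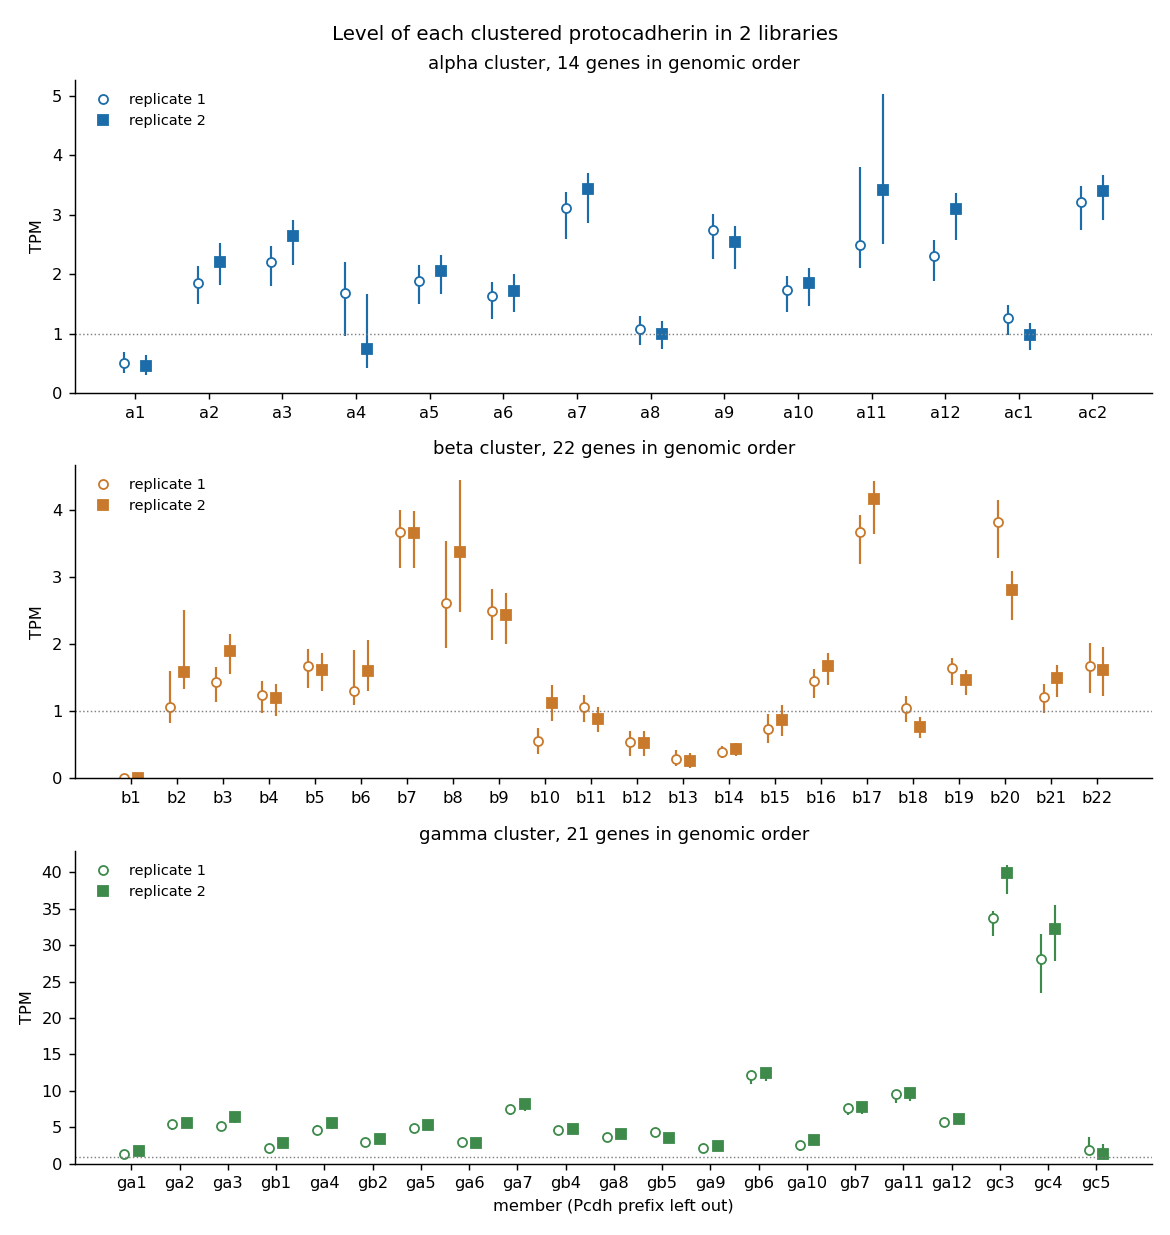
TPM of each of the 57 members in genomic order, in 1 panel per cluster with its own linear axis; open circles are replicate 1, filled squares replicate 2, vertical lines the deposited credibility interval, and the dotted line marks 1 TPM. Alpha and beta members stay below 5 TPM, and Pcdhgc3 and Pcdhgc4 stand above all other gamma members in both libraries.

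The 3 gamma C-type genes are the last of the locus. Pcdhgc3, a C-type isoform known for promoting dendrite branching, had the highest level of all members, 33.8 TPM in replicate 1 and 39.9 TPM in replicate 2 (36.8 ± 4.31, SD, n = 2), the 78.9th percentile of protein-coding genes. Pcdhgc4, the isoform needed for survival of many inhibitory neurons, was second at 28.1 and 32.3 TPM (30.2 ± 2.96). Both were higher in replicate 2, with credibility intervals of the 2 libraries that were apart for Pcdhgc3 and overlapped for Pcdhgc4, and the order of Pcdhgc3 over Pcdhgc4 held in each, with a log2 ratio of 0.29 ± 0.03. Pcdhgc5, at the end of the gamma cluster, was far lower at 1.83 and 1.31 TPM (1.57 ± 0.368), a log2 difference of 4.57 ± 0.51 from Pcdhgc3. Together Pcdhgc3 and Pcdhgc4 held 29.8% ± 1.39 of member TPM. Without them the remaining gamma genes still exceeded the alpha sum by 1.72 and the beta sum by 1.45 on the log2 scale.

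Most of the level of Pcdhgc4 was assigned to a short transcript model. GENCODE lists 3 transcripts for it. Pcdhgc4-201, the full-length model with a variable exon of 2905 bases joined to 2119 bases of the constant exons, was estimated at only 2.25 and 2.00 TPM (2.13 ± 0.177, SD, n = 2). Pcdhgc4-203 has 153 bases of its own, 6.73% of its 2272 bases, and is otherwise built of constant exons that all gamma members share. That short model took 20.0 and 23.2 TPM (21.6 ± 2.28), 71.2% and 71.9% of the gene's TPM. A retained-intron model, Pcdhgc4-202, which lies outside the constant exons, took the other 5.85 and 7.08 TPM. Among the 61 annotated transcripts of alpha and gamma members no other consisted of shared exons by more than 90%, and the next lowest share of own bases was 24.8%, in Pcdhgc5-204, which was at 0 TPM in both libraries.

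Counting only transcripts with both own and shared bases, Pcdhgc4 moved from the second to the 23rd place among the 35 alpha and gamma members. That count leaves out Pcdhgc4-202 as well, which is wholly sequence of Pcdhgc4 and stood at 5.85 and 7.08 TPM. It keeps models with few shared bases, such as Pcdhgb4-201 with 108. The 23rd place is therefore not a rank of all RNA with sequence particular to Pcdhgc4. Pcdhgc3 stayed first under that count at 33.4 and 39.4 TPM (36.4 ± 4.24, SD, n = 2), and 94.7% and 95.6% of its TPM came from its full-length model, Pcdhgc3-201. Pcdhgb6 and Pcdhga11 came next after Pcdhgc3. C-type members made up 38.4% ± 1.05 of alpha and gamma TPM, and 30.5% ± 0.830 with Pcdhgc4-203 left out. Leaving it out also lowered the gamma sum to 139.8 ± 9.06 TPM, which was still 2.29 ± 0.03 above the alpha sum and 2.02 ± 0.04 above the beta sum on the log2 scale. How the reads given to Pcdhgc4-203 would be divided if that model were absent was not tested.

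**Figure D2:**
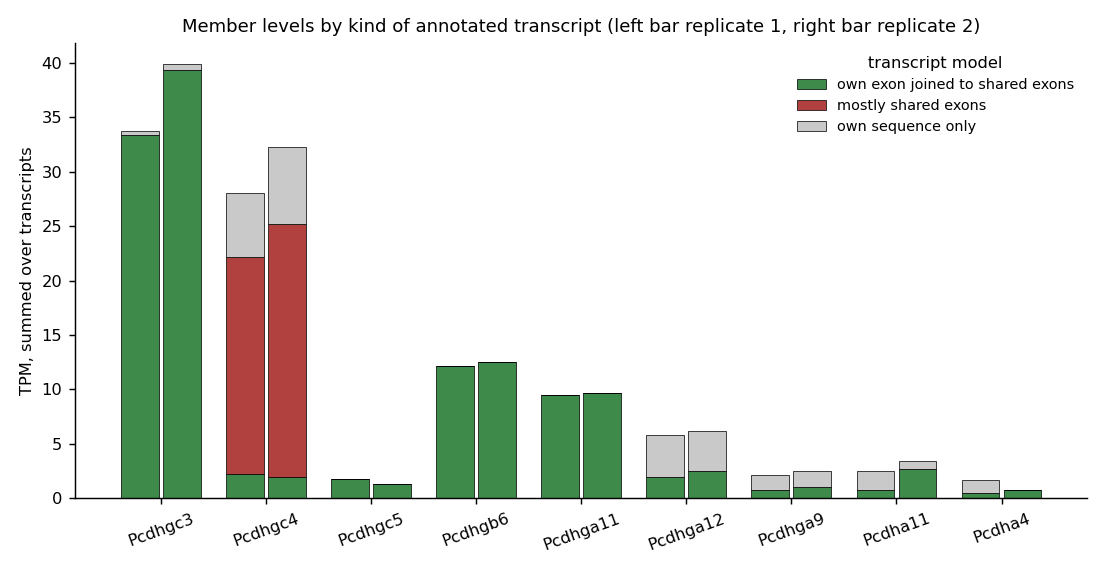
TPM of 9 members stacked by kind of transcript model, with replicate 1 on the left and replicate 2 on the right of each pair. Green (own exon joined to shared exons in the key) is any model with own and shared bases, red a model of mostly shared exons, grey a model without exons shared with another member. Bases that Pcdha4 shares with Gm42416, which is not a member, are counted as own. For Pcdha11 and Pcdhgc5 green includes the retained-intron models Pcdha11-206 and Pcdhgc5-202. Pcdhgc3 is almost all green, whereas Pcdhgc4 is mostly red, with 20.0 and 23.2 TPM in that model.

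The alpha C-type genes were in the range of the other alpha members. Pcdhac2, needed for the even spacing of serotonergic axons, was the highest alpha gene at 3.22 and 3.40 TPM (3.31 ± 0.127, SD, n = 2). Pcdhac1 was at 1.27 and 0.98 TPM, so that Pcdhac2 exceeded it by 1.57 ± 0.32 on the log2 scale. The highest variable alpha gene, Pcdha7, was at 3.12 and 3.43 TPM, and its log2 difference from Pcdhac2, -0.02 ± 0.04, was within the spread between the libraries.

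Subfamilies A and B of the gamma cluster summed to 58.5 ± 3.89 and 34.4 ± 0.537 TPM. Their median members were close, at 5.07 TPM for A and 4.30 TPM for B. Pcdhgb6 was the highest of them at 12.2 and 12.5 TPM (12.3 ± 0.262, SD, n = 2), with credibility intervals apart from those of Pcdhgc4 above it and Pcdhga11 below it in both libraries. The place of Pcdhgc4 above it depends on the short model Pcdhgc4-203, at 20.0 and 23.2 TPM. Pcdhga11 followed at 9.52 and 9.72 TPM (9.62 ± 0.141), 0.36 ± 0.01 below Pcdhgb6 on the log2 scale. These neighbours differed by more than their spread, while Pcdhga7 (7.56 and 8.17 TPM) and Pcdhgb7 (7.64 and 7.75 TPM) changed places between the libraries. Pcdhga12 was at 5.78 and 6.16 TPM and Pcdhgb4 at 4.67 and 4.76 TPM. The lowest A members were Pcdhga1 at 1.28 and 1.79 TPM, Pcdhga9 at 2.11 and 2.47 TPM and Pcdhga10 at 2.53 and 3.26 TPM. The lowest B members, Pcdhgb1 (2.22 and 2.82 TPM), Pcdhgb2 (3.00 and 3.44 TPM) and Pcdhgb5 (4.32 and 3.47 TPM), lay within the range of the A members. The means of the 6 remaining A members ran from 2.92 TPM for Pcdhga6 to 5.84 TPM for Pcdhga3.

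Models without shared exons took part of the estimate for some of these genes. In Pcdhga12 the retained-intron transcript Pcdhga12-202 held 65.4% and 58.9% of the TPM, leaving 2.00 and 2.53 TPM to the model joined to the constant exons. In Pcdhga9 the retained-intron transcript Pcdhga9-202 held 63.9% and 57.8%. Of the 57 members 36 have a single annotated transcript, 21 have more, and 5 were led, by the mean share over both libraries, by a transcript not classed as protein-coding: Pcdha11, Pcdhgb4, Pcdhga9, Pcdhga12 and Pcdhgc5. That transcript led in replicate 1 only in Pcdhgb4, where it held 53.2% and 48.0%, and in Pcdha11, where it held 68.9% and 22.3%. In replicate 2 Pcdha11 was led by another retained-intron transcript, Pcdha11-206, at 28.95%. Over the gamma cluster, models with both own and shared bases held 77.6% ± 0.815 of TPM, models of own sequence only 9.02% ± 0.343 and the short Pcdhgc4 model 13.4% ± 0.472 (SD, n = 2). The first class also holds models that are not protein-coding. Among them are Pcdhgb4-201, with 108 shared bases (2.49 and 2.29 TPM), and the retained-intron transcript Pcdhgc5-202, with 410 (0.92 and 0.85 TPM).

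The alpha variable genes summed to 24.2 ± 1.37 TPM and had means from 0.475 to 3.27 TPM. After Pcdha7, the next were Pcdha11 at 2.49 and 3.42 TPM and Pcdha12 at 2.31 and 3.09 TPM. In Pcdha11 the retained-intron transcript Pcdha11-205 took 1.72 and 0.76 TPM, which left 0.77 and 2.66 TPM to its other models. Of the latter, 0.78 TPM in replicate 2 came from 8.9 counts on a model of 625 bases. The lowest were Pcdha1 at 0.50 and 0.45 TPM, Pcdha8 at 1.07 and 1.00 TPM and Pcdha4 at 1.68 and 0.74 TPM. The gene named Pcdha10 here carries the symbol Pcdha11 in GENCODE M21 and was renamed from the RefSeq gene at its position. It was at 1.73 and 1.85 TPM. The means of the other 5, Pcdha2, Pcdha3, Pcdha5, Pcdha6 and Pcdha9, ran from 1.67 TPM for Pcdha6 to 2.64 TPM for Pcdha9. Apart from Pcdha1 and Pcdha4, every alpha variable gene was at 1.00 TPM or more in both libraries.

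Pcdha4 was the member with the least stable estimate. Its variable exon is also annotated as the first exon of Gm42416, a protein-coding model that joins it to the gamma constant exons, with 2410 shared exonic bases, 84.4% of that model. Only 11.6% of the 100-base windows of Pcdha4 occurred in no other gene, with antisense matches not counted. While Pcdha4 was at 121.9 and 74.2 estimated counts, Gm42416 was at 27.1 and 77.2, and their sum was 149.0 and 151.3. The 2 genes thus moved in opposite directions and their sum differed by less than the deposited posterior SD of Gm42416, 18.4 and 19.4 counts. Within Pcdha4 the leading model changed as well: the retained-intron transcript Pcdha4-203 held 72.7% of its TPM in replicate 1 and 0% in replicate 2.

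Beta genes were low and uneven. Pcdhb17 was the highest at 3.68 and 4.16 TPM (3.92 ± 0.339, SD, n = 2), Pcdhb7 next at 3.68 and 3.66 TPM, and then Pcdhb20 at 3.83 and 2.81 TPM. The log2 ratio of Pcdhb17 over Pcdhb7 was 0.09 ± 0.13, within the spread between the libraries. Pcdhb1 had 0 counts in both libraries, the only member without any. Such a 0 leaves room for as many as 3 counts, which would be 0.0576 TPM in replicate 1 and 0.0556 TPM in replicate 2. The promoter of Pcdhb1 lacks the sequence element shared by most clustered protocadherin promoters, and a link of this to its level was not tested. The next lowest were Pcdhb13 at 0.29 and 0.26 TPM and Pcdhb14 at 0.39 and 0.44 TPM, and the means of the other 16 ran from 0.535 TPM for Pcdhb12 to 2.99 TPM for Pcdhb8. In Pcdhb8, 0.72 and 1.32 TPM came from 5.51 and 10.34 counts on a model of 462 bases, and its longer model was at 1.89 and 2.05 TPM. The 4 neighbouring genes from Pcdhb12 to Pcdhb15 had medians of 0.465 and 0.485 TPM and none had a mean above 0.805 TPM, against medians of 1.31 and 1.60 TPM for Pcdhb1 to Pcdhb11 and 1.64 and 1.61 TPM for Pcdhb16 to Pcdhb22. Pcdhb1, at 0, lies in the first of those segments, and Pcdhb10, Pcdhb11 and Pcdhb18, each with a mean below 1 TPM, lie outside the low one. These segments were drawn after the values had been seen, and no test was made of them.

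Across all 57 members Spearman's rho between position in the locus and mean TPM was 0.536, as a description of points that share libraries and, within a cluster, sequence. Within the clusters rho was 0.411 for alpha (n = 14), 0.093 for beta (n = 22) and 0.357 for gamma (n = 21). The order of the members was alike in the 2 libraries, with a rho of 0.965. Neighbours in that order were mostly not separable. Of 56 pairs of neighbours by mean TPM, 46 had overlapping credibility intervals in both libraries, 6 in 1 library and 4 in neither: Pcdhgc4 over Pcdhgb6, Pcdhgb6 over Pcdhga11, Pcdhgb7 over Pcdhga12, and Pcdhb13 over Pcdhb1. The first of these orders depends on Pcdhgc4-203, the model of mostly shared exons, at 20.0 and 23.2 TPM. The other models of Pcdhgc4 were at 2.25 and 2.00 TPM and at 5.85 and 7.08 TPM, against 12.2 and 12.5 TPM for Pcdhgb6.

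The members differ in how much sequence they share and in how precisely they were counted. Reads from shared exons are divided between genes by the authors' quantification, and the deposited posterior SD of the count measures the uncertainty of that division. Of the 100-base windows in a member's transcripts, a median of 44.6% in the alpha, 99.8% in the beta and 56.4% in the gamma cluster occurred in no other gene. Windows were matched in the sense of the transcripts only, so antisense RNAs on members' exons do not lower these shares. The posterior SD came to a median of 5.82% of the count for alpha, 0.198% for beta and 4.24% for gamma members. Spearman's rho between the 2 measures was -0.803 over the 56 members with counts. Within the clusters it was -0.231 for alpha (n = 14), -0.866 for beta (n = 21) and -0.018 for gamma (n = 21). Pcdha4 had the largest posterior SD, 18.3% and 39.3% of its count, followed by Pcdha1 at 12.2% and 13.8%. Pcdhga10, at 10.8% in replicate 1, was the only other member past 10% in either library. Pcdhga10 has 2613 bases of its own, and 2613 of its exonic bases lie opposite Gm26672, an RNA of the other strand. A link between that overlap and its posterior SD was not tested. Pcdhgc3, with the highest count, had 1.72% and 1.67%. In the beta cluster 10 genes with counts had a posterior SD of 0 in both libraries.

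**Figure D3:**
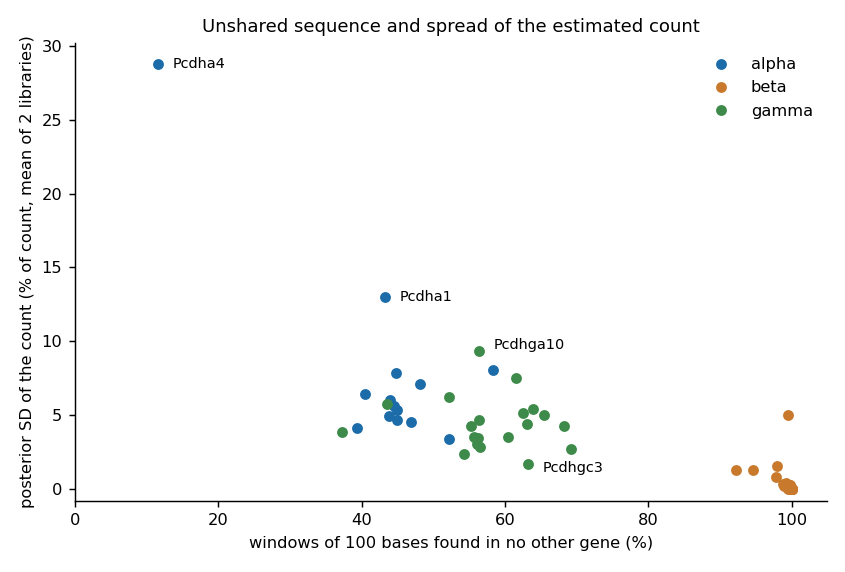
Share of 100-base windows found in no other gene (x axis, %) against the posterior SD of the estimated count as a percentage of the count, mean of 2 libraries (y axis), for the 56 members with counts, coloured by cluster. Antisense matches were not counted. Beta members gather near 100% and 0%, alpha and gamma members between 37.3% and 69.2% except Pcdha4 at 11.6%.

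The 2 libraries were compared gene by gene with a two-sided exact binomial test of their counts, adjusted over 20125 genes by the Benjamini-Hochberg method. It measures counting error between these 2 libraries and says nothing of a condition, and counts that include PCR copies make its p-values too small. Of 56 members tested, 10 differed at an adjusted p under 0.05, which is 17.9% and near the 20.3% of all genes. There were 6 higher in replicate 2, against 10.5% of all genes, and 4 lower, against 9.78%. The median log2 ratio over members was 0.06, beside -9.29e-04 over all genes tested, and 34 of the 56 ratios were positive, 60.7% against 49.8% of all genes.

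Pcdhgc3 was higher in replicate 2 by a log2 ratio of 0.20 (counting SE 0.03, exact binomial adjusted p = 1.30e-07) and Pcdhgc4 by 0.14 (SE 0.05, exact adjusted p = 0.0383). Pcdhb10, a low beta gene with 31.9 and 67.4 counts, had the largest positive ratio, 0.94 (SE 0.31, exact adjusted p = 0.00977). Pcdha12 (0.38), Pcdhga10 (0.32) and Pcdhga3 (0.26) were the other 3 higher in replicate 2. Among the 4 lower ones, Pcdha4 had the largest difference at -0.79 (SE 0.21, exact adjusted p = 0.00161), beside the opposite change of Gm42416, at 1.36 (exact adjusted p = 8.19e-05). Pcdhb20 was lower by a log2 ratio of -0.49 (SE 0.13, exact adjusted p = 0.00217), Pcdhgc5 by -0.47 and Pcdhgb5 by -0.36. When the posterior SD was added to the counting error, the ratios of 7 of the 10 exceeded 2 standard errors, and those of Pcdha4, Pcdhgc4 and Pcdhga10 did not.

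No member was called when the spread was taken from all genes, with edgeR's exact test at a common dispersion that corresponds to a coefficient of variation of 7.36%, whereas 227 genes, 1.13% of those tested, were called. The lowest adjusted p of a member in that test was 0.105, for Pcdha4, and 5 members had an unadjusted p under 0.05 (16 in the exact binomial test): Pcdha12 and Pcdhb10 higher in replicate 2 and Pcdha4, Pcdhb20 and Pcdhgc5 lower.

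**Figure D4:**
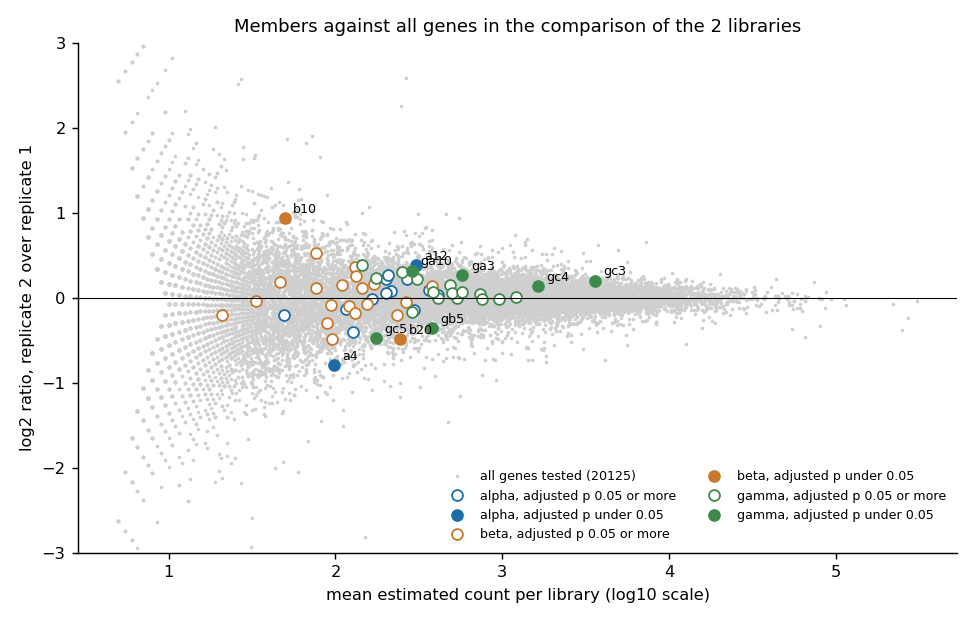
Log2 ratio of replicate 2 over replicate 1 (y axis) against the mean estimated count per library on a log10 scale (x axis) for 20125 genes in grey and 56 members in colour; filled points passed an adjusted p under 0.05 in the exact binomial test. The 10 filled members lie within the grey cloud, from -0.79 for Pcdha4 to 0.94 for Pcdhb10.

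Cell type markers were read in the same libraries. All 7 neuron markers and all 6 neural progenitor markers were above 1 TPM in both libraries, with no marker at 0, as were the markers of sensory ganglion (6 of 6), Schwann cell and crest (4 of 4), mesenchyme and meninges (5 of 5), skeletal muscle (4 of 4), endothelium (3 of 3), erythroid cells (3 of 3) and macrophages (2 of 3). Summed sensory ganglion markers went from 304.6 TPM in replicate 1 to 429.6 TPM in replicate 2 and all 6 were higher by the exact binomial test, against 10.5% of all genes, and 3 by edgeR's exact test. The 4 skeletal muscle markers went from 230.7 to 164.9 TPM and all were lower by the exact binomial test, against 9.78% of all genes, and 1 by edgeR's exact test. Of the other lists the numbers higher and lower were 4 and 1 for neuron, 1 and 2 for progenitor, 2 and 0 for Schwann cell, 0 and 1 for mesenchyme, 2 and 0 for endothelium, 0 and 2 for erythroid and 0 and 0 for macrophage markers. The part of these cell types in the differences of the members was not tested.

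The known regulators of the locus and partners of its proteins were taken from 3 lists. The counts of genes higher and lower given for these lists are from the exact binomial test, which called 10.5% of all genes higher and 9.78% lower. With edgeR's exact test 0 genes of the 3 lists passed, and 0 had an unadjusted p under 0.05. All 11 genes of the locus architecture list, the CTCF and cohesin factors that bring a chosen promoter to the distant enhancers, were expressed, with a median of 39.7 ± 3.28 TPM. Ctcf itself was at 99.5 and 94.8 TPM, Smc1a, a cohesin subunit, at 78.3 and 85.8 TPM, and Pds5a, a cohesin regulator, at 70.7 and 75.3 TPM. Nipbl, the cohesin loader, was lowest at 17.1 and 16.8 TPM, and Wapl, the cohesin release factor, was at 23.9 TPM in both. Of this list 3 genes were higher and 1 lower in replicate 2.

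All 12 genes of DNA methylation and silencing were expressed, with a median of 30.9 ± 1.23 TPM. Dnmt3a, a de novo DNA methyltransferase, was highest at 136.8 and 114.9 TPM. Dnmt3b, the enzyme known to methylate protocadherin promoters in the early embryo, was lowest at 5.81 and 5.22 TPM. Kdm1a, a histone demethylase, was at 89.9 and 107.9 TPM, and Dnmt1, the maintenance methyltransferase, at 70.0 and 72.9 TPM. Of this list 3 were higher and 4 lower in replicate 2.

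Of the 21 genes for cleavage and signalling partners, which cleave the proteins or take part in their signalling, 20 were expressed, with a median of 52.5 ± 2.57 TPM. Marcks, an actin-linked substrate of protein kinase C, was at 236.3 and 243.8 TPM, Brk1, a subunit of the WAVE actin-regulating complex, at 171.5 and 162.8 TPM, and Nckap1 of the same complex at 80.9 and 94.2 TPM. Ptk2b, a kinase held in check by protocadherin tails, was the 1 gene below 1 TPM, at 0.66 and 0.69 TPM, and Prkca, a protein kinase C, was at 6.36 and 6.70 TPM. Of this list 9 were higher and 3 lower in replicate 2.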

How the data were processed

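PolyA-selected RNA of 2 pools of neural tubes was sequenced as 1 library each. The deposited tables give, per gene and per transcript of GENCODE M21 (and M4) on mm10 per the deposited notes, an expected count, TPM, posterior SD and credibility bounds, and the percent of a gene's TPM in each transcript. The authors' tables have the column names that RSEM writes, and the aligner, the quantifier and the level of the credibility interval are not given in the sources used. ERCC spike-ins took 2.99% and 2.89% of counts and were left out of library sizes. Expected counts were rounded to whole numbers. One read on 1 kb of effective length was worth 0.0478 and 0.0462 TPM.

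Members were found by symbol and counted at 1 TPM in both libraries, sums are over member TPM, and SDs are over the 2 libraries. Libraries were compared over genes with 10 or more counts in either, scaled by TMM (edgeR 4.0.16, R 4.3.3), with a two-sided exact binomial test (scipy 1.17.1) and a prior count of 2 in log2 ratios. The test was checked on simulated Poisson counts, which hold no spread between libraries beyond counting error, so the check does not cover such spread. Alternatives were DESeq2 1.42.0 size factors, spike-in scaling, no count filter, posterior means, the M4 tables, other TPM thresholds, log2(TPM + 1), members with a posterior SD up to 10% and edgeR's exact test. Windows of 100 bases were matched over all M21 transcripts on the forward strand. Exonic bases were called shared when they lie in exons of more than 1 member. No sequences are printed.

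Named genes were the C-type members, the 3 highest and 3 lowest of the other classes, the members differing most between libraries or annotation releases, those at 0 counts, and from 3 regulator lists the 3 highest and 2 lowest genes, of which 1 is not reported here. Members, the 12 gene lists and tests were chosen with earlier results of these data known. The transcript models of Pcdhgc4, Pcdha4 and the other genes described by model were singled out after their values were seen. The labels say the replicates are biological and give separate pools. The binomial p-values cover counting error only, and those of edgeR's exact test add a common dispersion estimated from the 2 libraries.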

Additional observations from a re-analysis of the deposited data

How the results depend on the processing

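With the M4 annotation in place of M21 the alpha sum was 30.1 TPM and the beta sum 36.3 TPM, and 56 members were higher, by a median ratio of 1.05 against 1.05 over all expressed protein-coding genes. The largest ratios were those of Pcdha4 (1.09), Pcdhgc4 (1.08) and Pcdhga10 (1.06). With posterior mean TPM the log2 ratio of beta over alpha was 0.28. Leaving out the Pcdhgc4 transcript of mostly shared exons, chosen after seeing the data, gave a gamma sum of 139.8 TPM, log2 ratios of 2.29 over alpha and 2.02 over beta, and a C-type share of 30.5%, since less RNA is then summed. At 5 TPM 9 members were counted as expressed. With a common dispersion, edgeR's exact test called 0 members (5 at an unadjusted p under 0.05) and 227 genes, against 10 and 4080 by counting error alone. Spike-in scaling called 9 members higher and 4 lower, among them the 10 of the binomial test, and over all genes 3891 higher and 1171 lower against 2112 and 1968. DESeq2 size factors called the same 10 members. Without the count filter and with M4, 8 members were called, and 9 with posterior mean counts, all among the 10. The design has 1 group, so no paired analysis was possible because no groups are compared. Depth limits the members below 1 TPM, where a count of 0 allows 3 counts. With 2 libraries an SD is itself imprecise.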

Other observations

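The locus holds other RNAs that lie on members' exons. BC037039, an antisense RNA with 1559 exonic bases opposite Pcdhgc3 (70.7% of its own), was at 6.62 and 6.03 TPM in replicates 1 and 2. Gm26672 lies opposite exons of Pcdhga10 (2613 bases), Pcdhga11 (1381), Pcdhga12 (422) and Pcdhgb7 (771) and was at 4.79 and 4.46 TPM. Gm10544, opposite 852 bases of Pcdha11, was at 4.22 and 4.33 TPM. As no step that keeps the strand is named, reads from the overlapping bases cannot be told apart between these RNAs and the members opposite to them. For Gm10544 those bases are 16.9% of its exonic bases. Gm10545, opposite Pcdha11 and Pcdha12, was at 0.69 and 0.44 TPM. Pcdhgb8, the polymorphic pseudogene that shares the constant exons, was at 1.06 and 1.07 TPM, near the lowest gamma members. Besides Gm42416, the annotation has 2 more protein-coding models that join an alpha variable exon to gamma constant exons: Gm37013, with the exon of Pcdha6, and Gm37388, with that of Pcdha7. Both had 0 counts in both libraries, where Gm42416 had 27.1 and 77.2 (log2 ratio 1.36, adjusted p = 0.00792 in edgeR's exact test).

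The protein-coding genes nearest to the members ranged widely. Taf7, a general transcription factor subunit that lies between the beta and gamma clusters, was at 15.4 and 14.4 TPM, and its neighbour Slc25a2, a mitochondrial carrier, at 0.53 and 0.40 TPM. Before the alpha cluster, Zmat2 was at 63.8 and 68.3 TPM, Hars2 at 35.5 and 32.5 TPM and Hars, a histidyl-tRNA synthetase, at 87.2 and 92.5 TPM. After the gamma cluster, Diaph1, an actin-nucleating formin, was at 4.35 and 3.34 TPM, Hdac3, a histone deacetylase, at 106.7 and 114.5 TPM and Rell2 at 17.4 and 17.9 TPM. The median member was at 2.20 and 2.47 TPM in the same libraries.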
